A study of Mus musculus with 4 samples.

Results

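The 38 Hox genes examined were members of the Hoxa, Hoxb, Hoxc and Hoxd clusters, and they were taken by name, with no measured value in the rule. They made up 38 of the 21951 protein-coding genes of the mouse annotation, with 10 in the Hoxa cluster, 10 in Hoxb, 9 in Hoxc and 9 in Hoxd. Hox genes encode transcription factors that bind DNA through a homeodomain and give cells their position along the head-to-tail axis. Within a cluster the genes lie in the order in which they are used along that axis, and genes at the same position in different clusters form a paralog group, low numbers acting towards the head and high numbers towards the tail. Polycomb proteins keep the clusters silent in cells that do not use them, and trithorax proteins keep used genes active. In blood formation, which takes place in the yolk sac and then in the fetal liver, several Hox genes act in stem and progenitor cells, and Hox genes are also used in mesoderm and its mesenchymal derivatives.

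Transcription was mapped by PRO-seq, a run-on method that labels RNA held by engaged polymerases, in liver and yolk sac of mouse embryos at stage E14.5, counted in days of embryonic development. Each tissue had 2 libraries, and each library was made from chromatin of 6 pooled embryos. All embryos, in both tissues, had C57BL/6J mothers and fathers of a mixed C57BL/6J and CAST/EiJ background that carried CAST/EiJ sequence at Dlk1/Gtl2 on chromosome 12 (one label writes the first strain as C57BL/6h), and the labels name no treatment. They do not say whether embryos of a pool shared a litter, so a p-value measures only the spread between these libraries. The deposited values are lists of peaks with a score, and the file names carry dREG, a classifier that finds regions of transcription initiation, at promoters and at enhancers, from run-on reads. A Hox gene was called when a peak overlapped the 500 bp on either side of any of its annotated starts. The score has no unit and was not scaled between libraries, so it is given as a percentile, the share of peaks in the same list with a score at or below it. A percentile describes a peak's place within its own list, and ranks from lists of different lengths show no change between them.

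The yolk sac lists were longer than the liver lists, which touches every count below. Liver replicates 1 and 2 held 24863 and 24333 peaks, and the yolk sac replicates 50525 and 43055, a 1.90-fold difference in means. The lists hold no read counts, so the depth is unknown, and a missing peak does not show that a gene was silent. In whole tissue, fewer cells of a type that uses a gene and less transcription per cell cannot be told apart. All 10 erythroid marker genes had a promoter peak in both liver libraries, against 2 of 10 in both yolk sac libraries. All 11 yolk sac endoderm markers had one in both yolk sac libraries, against 9 and 7 in the liver libraries. Hepatoblast markers numbered 9, 8, 9 and 9 of 11 over the liver and then the yolk sac replicates. Mesenchymal markers numbered 6 and 10 of 11 in liver and 11 in both yolk sac libraries, endothelial markers 7 and 9 of 10 against 10 in both, and muscle and neural markers 0 of 10 in every library. The part of cell makeup in the Hox calls was not tested.

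Promoter peaks at Hox genes were few in liver and common in yolk sac. Of the 38 genes, 3 were called in liver replicate 1 and 3 in replicate 2, whereas 22 and 21 were called in the yolk sac replicates. Over all protein-coding genes the libraries differed far less, with 56.1% and 57.9% called in the liver libraries and 63.8% and 62.4% in the yolk sac libraries. The liver mean was 3 ± 0 Hox genes and the yolk sac mean 21.5 ± 0.707 (SD, n = 2), which is 18.5 genes more than in liver. The replicates differed by 0 and 1 gene, and the exact two-sided permutation p was 0.333, which is the lowest that 2 libraries against 2 allow.

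By their pattern over the libraries, 14 Hox genes (36.8%) were yolk-sac-only, meaning called in each yolk sac library and absent from the liver lists, a pattern that 5.25% of protein-coding genes showed. They were Hoxa5, Hoxa13, Hoxb6, Hoxb9, Hoxc4, Hoxc5, Hoxc6, Hoxc8, Hoxc9, Hoxc10, Hoxc11, Hoxc13, Hoxd8 and Hoxd9. No Hox gene showed the opposite, liver-only pattern, which 1.01% of protein-coding genes had, nor did any in lists of equal length (3.01%) or in the higher-scoring 50% of each list (1.32%). When the midpoint of the peak had to lie in the promoter window, 1 gene, Hoxb7, became liver-only. Hoxa4, Hoxb4 and Hoxb7 (7.89%) were called in all 4 libraries, against 53.8% of protein-coding genes. Another 9 genes were called in 1 yolk sac library only. The remaining 12 Hox genes (31.6%) had no promoter peak in any library, close to the 34.2% of protein-coding genes without one.

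The difference became smaller, but kept its direction, when list length was made equal. When every list was reduced to its 24333 top-scoring peaks, 3 Hox genes were called in each liver library and 12 and 13 in the yolk sac libraries, a difference of 9.5. Yolk-sac-only Hox genes then numbered 9 (23.7%), beside 2.61% of protein-coding genes. The 9 were Hoxb6, Hoxc4, Hoxc5, Hoxc6, Hoxc8, Hoxc9, Hoxc13, Hoxd8 and Hoxd9. With equal lists the Hoxa cluster had 1 gene called in each of the 4 libraries, so its difference was 0, and Hoxb had 2, 2, 2 and 4. In the higher-scoring 50% of each list, where 8.84% of protein-coding genes were yolk-sac-only, 11 Hox genes (28.9%) were. No Hox gene was then called in liver, and 12 were called in each yolk sac library. Under the midpoint rule, the difference over all Hox genes was 12 and that in Hoxb was 1.

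**Figure D1:**
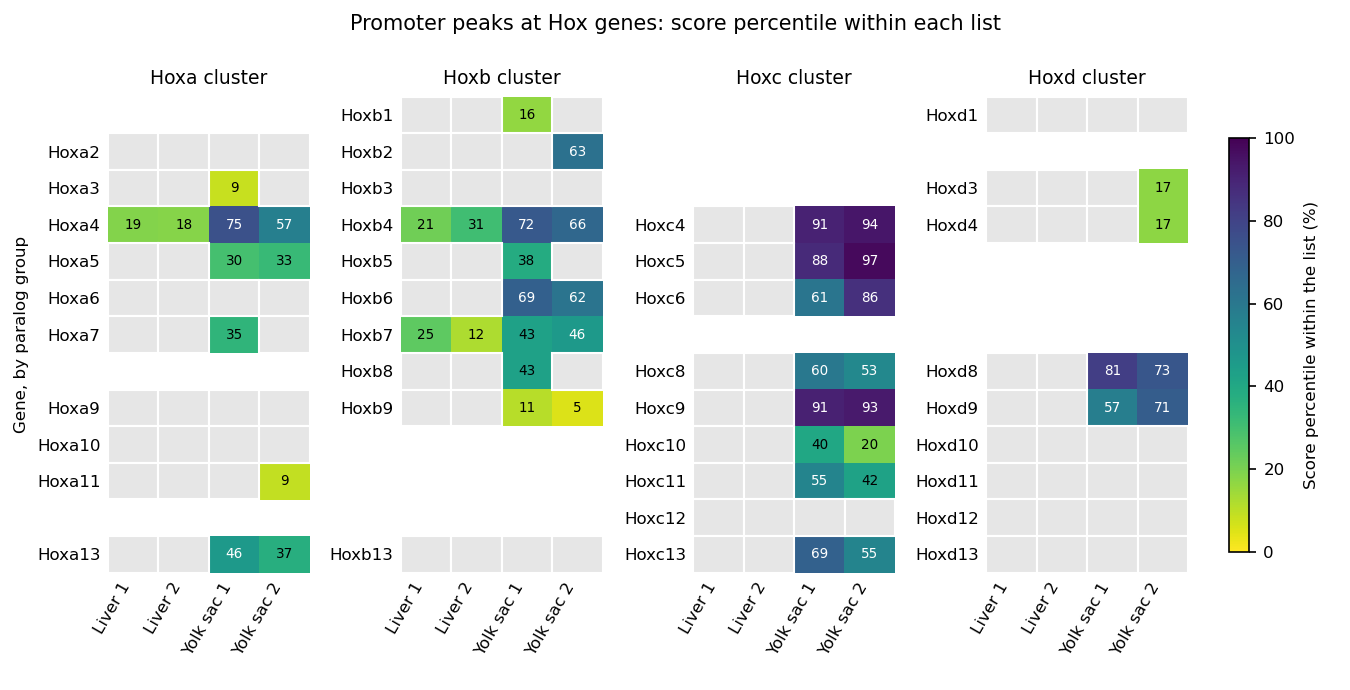
Score percentile within each list (color and number, in %) of the highest-scoring promoter peak of each of the 38 Hox genes, in 1 column per library, arranged by cluster and by paralog group from top to bottom. Grey cells have no promoter peak and blank places have no gene in the list. Liver columns hold values at Hoxa4, Hoxb4 and Hoxb7 only, and the Hoxc yolk sac columns are filled for 8 of 9 genes.

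The 3 genes called in all 4 libraries had low-ranking, narrower peaks in liver. Hoxb4, a group 4 gene known for expanding blood stem cells when overexpressed, was at percentiles 21.5 and 30.8 in the liver replicates and 71.9 and 66.5 in the yolk sac replicates. Its peaks were 1352 and 1602 bp wide in liver and 1852 and 1902 bp in yolk sac, within chr11:96318201-96320152, mostly downstream of the start. Their midpoints lay in a coding exon of Hoxb4, between 859 and 934 bp downstream of the nearest start. Hoxb4 thus held nearly the same interval in both tissues.

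Hoxa4, the paralog of Hoxb4 in the Hoxa cluster, was at percentiles 18.5 and 18.2 in liver and at 75.3 and 56.9 in yolk sac. The liver peaks spanned 402 and 602 bp and ended 48 and 98 bp upstream of the Hoxa4 start. The yolk sac peaks, 1702 and 1352 bp wide, covered the same upstream stretch and ran over the start, within chr6:52191051-52192752. This stretch also lies in introns of Hoxa3 and of the antisense gene Hoxaas3. Hoxb7, a trunk gene of paralog group 7, was at percentiles 24.9 and 12.4 in liver and 42.9 and 46.1 in yolk sac. Its liver peaks were 1252 and 1002 bp wide and its yolk sac peaks 4552 and 3252 bp, within chr11:96282801-96287352. The widest of these began 76 bp past the start of Hoxb8 and ran over that of Hoxb7, so 1 peak stood for both genes in yolk sac replicate 1.

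Over Hoxa4, Hoxb4 and Hoxb7 the median percentile was 21.5 and 18.2 in liver and 71.9 and 56.9 in yolk sac, and the yolk sac mean was 44.6 points above the liver mean. Over the 11805 protein-coding genes called in all 4 libraries it was 68.5 and 68.7 in liver and 72.8 and 73.4 in yolk sac, 4.49 points apart. For these Hox genes the median width was 1252 and 1002 bp in liver and 1852 and 1902 bp in yolk sac, which puts the means 750 bp apart, beside 50 bp over the same protein-coding genes. For the Hox widths the exact permutation p was 0.333, its lowest possible value, and the tissues did not overlap. The percentile values come from lists of unequal length and are given as a description, not as a change between tissues. With lists of equal length, where Hoxa4 and Hoxb4 alone were called in all 4 libraries, the difference in median percentile was 17.3 points.

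The Hoxc cluster stood out in yolk sac and was empty in liver. In yolk sac 8 of its 9 genes were called in both libraries, and in liver no peak of any kind lay within its 117 kb (chr15:102920603-103037352). Peaks covered 22.6% and 20.7% of the cluster in the yolk sac libraries. The corresponding shares were 9.33% and 7.10% for Hoxb, 5.74% and 4.03% for Hoxa, and 3.07% and 3.53% for Hoxd. Hoxc12 was the only Hoxc gene without a promoter peak.

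At the head-side end, Hoxc4, a gene of neck and upper trunk patterning, had peaks at percentiles 90.5 and 93.9. They were 2052 and 1502 bp wide, within chr15:103034051-103036102, and covered the start and a coding exon. Hoxc5, the neighbouring group 5 gene, reached percentiles 87.9 and 97.3 with peaks of 2302 and 1702 bp within chr15:103014101-103016402. These peaks began 286 and 486 bp downstream of the Hoxc5 start and held the microRNA gene Mir615, so the Hoxc5 and Mir615 calls rest on the same peaks. A second Hoxc5 start, that of a long transcript, lies beside Hoxc10 and shared the Hoxc10 peak in both libraries.

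Hoxc6, used in the thorax and mammary gland, had peaks of 3752 and 3502 bp at percentiles 61.1 and 86.2, within chr15:102997351-103001102 and over its first start. A second Hoxc6 start carried a smaller peak of 652 and 552 bp at percentiles 35.1 and 25.0. Hoxc8, which patterns the lower thorax and its motor neurons, had 2 peaks in yolk sac replicate 1, of 1352 and 1102 bp at percentiles 42.0 and 59.9. In replicate 2 a single peak of 3052 bp at percentile 53.3 spanned the same chr15:102990001-102993052. The replicates thus shared the Hoxc8 interval and differed in whether it was split. Hoxc9, which sets thoracic motor neuron identity, ranked high in both lists, at percentiles 90.7 and 92.7, with peaks of 2452 and 2352 bp within chr15:102975551-102978002.

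The called genes beyond Hoxc9, namely Hoxc10, Hoxc11 and Hoxc13, ranked below Hoxc4, Hoxc5 and Hoxc9 in both lists. Hoxc13, however, ranked above Hoxc8 in both lists and above Hoxc6 in yolk sac replicate 1. Hoxc10, a lumbar and hindlimb gene, was at percentiles 40.3 and 19.6 with peaks of 902 and 602 bp within chr15:102966501-102967402. Hoxc11, its neighbour in the hindlimb and urogenital region, was at percentiles 54.8 and 42.4 with peaks of exactly the same 2802 bp, chr15:102954451-102957252, in both libraries. Hoxc13, a gene known for hair and nail formation, had peaks of 1702 and 1752 bp at percentiles 69.1 and 54.9, within chr15:102920401-102922152. Each of Hoxc4, Hoxc5, Hoxc6, Hoxc8, Hoxc9 and Hoxc13 also kept its yolk-sac-only call in lists of equal length and in the higher-scoring 50%. Under both settings Hoxc10 was not called, and Hoxc11 was called in 1 yolk sac library.

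The Hoxd cluster showed a narrow yolk sac block and nothing in liver, where its 97.8 kb (chr2:74667810-74765642) held no peak. Hoxd8, a group 8 gene of the trunk, had peaks of 1802 and 1552 bp at percentiles 81.4 and 73.0, within chr2:74704401-74706202, covering its start and 5′ region. Hoxd9, next to it and used in limbs and the lumbosacral axis, had peaks of 1202 and 1152 bp at percentiles 57.2 and 70.6, within chr2:74697451-74698652. Hoxd3 and Hoxd4 shared 1 peak of 752 bp at percentile 16.99 in yolk sac replicate 2, over start sites of both genes. The digit and limb genes Hoxd10, Hoxd11, Hoxd12 and Hoxd13 and the head-side gene Hoxd1 had no promoter peak in any library.

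In the Hoxa cluster, 1 gene was called in each liver library and 5 and 4 of 10 in the yolk sac libraries. Hoxa5, required for development of the trachea and lung, had peaks of 952 and 552 bp at percentiles 29.6 and 32.7, both beginning 35 bp downstream of its start, within chr6:52203601-52204552. Hoxa13, which acts in digits, the genital region and umbilical vessels, had peaks of 702 and 402 bp at percentiles 46.0 and 37.2, within chr6:52260451-52261152, over its starts. Both fell below the score needed in lists of equal length. Hoxa3 and Hoxa7 were called in yolk sac replicate 1 alone, at percentiles 8.54 and 34.7, and the forelimb gene Hoxa11 in replicate 2 alone, at 9.25. Hoxa2, a gene of the branchial arches, Hoxa6, Hoxa9, known from blood progenitors, and Hoxa10, known from the uterus, had no promoter peak.

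In the Hoxb cluster, 2 genes were called in each liver library and 7 and 5 of 10 in the yolk sac libraries. Hoxb6, a gene of lateral plate mesoderm, had peaks of 1902 and 1702 bp at percentiles 69.3 and 61.6 at one start, within chr11:96291901-96293802. At a second Hoxb6 start, peaks of 652 and 402 bp were at percentiles 47.4 and 14.46. Hoxb9, a gene of the thoracic axis, had the weakest yolk-sac-only call of the Hox genes, with peaks of 252 bp in each library at percentiles 10.6 and 5.08. The Hoxb9 peaks overlapped only in part, within chr11:96271651-96272102, and began 328 and 128 bp downstream of the start. Hoxb1, Hoxb5 and Hoxb8 were called in yolk sac replicate 1 alone, at percentiles 16.4, 38.3 and 42.9, and Hoxb2 in replicate 2 alone, at 62.8. Hoxb3 and Hoxb13 had no promoter peak.

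Some of these single-replicate calls turned on the 500 bp limit. Just inside it, the Hoxa11 peak of replicate 2 lay 493 bp from the start, the proximal Hoxc5 peak of replicate 2 lay 486 bp away, and the Hoxb1 peak of replicate 1 lay 393 bp away. Just outside it, a peak lay 570 bp from the Hoxb2 start in yolk sac replicate 1, and peaks lay 806 bp from a Hoxb3 start in both yolk sac libraries. In liver the nearest peak to Hoxb2 was 1170 bp away. Hoxb2 and Hoxb3 therefore had peaks near their starts in both yolk sac libraries without being called in both.

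By paralog group, genes of groups 1 to 4 (11 genes) were called 2, 2, 5 and 6 times over liver replicates 1 and 2 and yolk sac replicates 1 and 2. Groups 5 to 8 (11 genes), the trunk genes, gave 1, 1, 10 and 7. Groups 9 to 13 (16 genes), the tail-side genes, gave 0, 0, 7 and 8. In each of the 3 classes the yolk sac counts were above the liver counts (exact permutation p = 0.333, again the lowest possible). The differences of 3.5, 7.5 and 7.5 became 1.5, 4.5 and 3.5 in lists of equal length. Within group 4, both yolk sac libraries had calls at Hoxa4, Hoxb4 and Hoxc4, and 1 had a call at Hoxd4. The Hoxd4 call rested on the peak shared with Hoxd3, and no library had a peak further downstream in the Hoxd cluster. Within group 9, Hoxb9, Hoxc9 and Hoxd9 were yolk-sac-only and Hoxa9 was not called. The group 12 genes Hoxc12 and Hoxd12 were not called in any library.

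Promoter sequences were available for 22 of the 38 genes, in 24 windows of 300 bp reaching from 250 bp before to 50 bp after the RefSeq start (assembly GRCm38.p6), which need not be the GENCODE start used for the calls. The 6 shown cover strong yolk-sac-only calls (Hoxc4, Hoxd8, Hoxd9), weaker ones (Hoxa13, Hoxa5) and 1 gene called in all 4 libraries (Hoxb4). Letters in capitals mark CpG dinucleotides, the sites of DNA methylation in mammals, whose number differs widely between these promoters.
Hoxc4 promoter, chr15:103034145-103034444, plus strand: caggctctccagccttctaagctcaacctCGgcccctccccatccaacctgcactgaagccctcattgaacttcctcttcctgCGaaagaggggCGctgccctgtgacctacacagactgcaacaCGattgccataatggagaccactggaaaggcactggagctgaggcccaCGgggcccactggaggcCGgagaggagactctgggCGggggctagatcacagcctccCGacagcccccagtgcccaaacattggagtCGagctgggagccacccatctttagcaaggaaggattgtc
Hoxd8 promoter, chr2:74704365-74704664, plus strand: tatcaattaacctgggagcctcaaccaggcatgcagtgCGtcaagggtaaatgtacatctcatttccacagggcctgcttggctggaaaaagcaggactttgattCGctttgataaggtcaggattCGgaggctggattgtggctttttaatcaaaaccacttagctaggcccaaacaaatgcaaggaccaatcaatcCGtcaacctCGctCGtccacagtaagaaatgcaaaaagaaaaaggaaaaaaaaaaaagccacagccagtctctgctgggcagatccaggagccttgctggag
Hoxd9 promoter, chr2:74697513-74697812, plus strand: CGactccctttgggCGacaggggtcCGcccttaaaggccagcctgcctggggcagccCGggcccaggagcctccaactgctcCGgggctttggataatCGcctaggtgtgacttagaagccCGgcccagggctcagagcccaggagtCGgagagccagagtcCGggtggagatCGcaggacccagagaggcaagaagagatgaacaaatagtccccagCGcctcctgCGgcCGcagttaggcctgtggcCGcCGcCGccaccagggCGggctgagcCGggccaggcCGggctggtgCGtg
Hoxa13 promoter, chr6:52260831-52261130, minus strand: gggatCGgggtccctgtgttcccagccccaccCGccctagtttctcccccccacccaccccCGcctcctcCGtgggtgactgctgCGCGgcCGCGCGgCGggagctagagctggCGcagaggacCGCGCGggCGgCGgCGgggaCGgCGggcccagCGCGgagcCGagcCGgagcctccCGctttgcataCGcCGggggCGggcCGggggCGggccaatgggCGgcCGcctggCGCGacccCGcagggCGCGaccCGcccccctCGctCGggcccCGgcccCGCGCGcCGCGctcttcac
Hoxa5 promoter, chr6:52204538-52204837, minus strand: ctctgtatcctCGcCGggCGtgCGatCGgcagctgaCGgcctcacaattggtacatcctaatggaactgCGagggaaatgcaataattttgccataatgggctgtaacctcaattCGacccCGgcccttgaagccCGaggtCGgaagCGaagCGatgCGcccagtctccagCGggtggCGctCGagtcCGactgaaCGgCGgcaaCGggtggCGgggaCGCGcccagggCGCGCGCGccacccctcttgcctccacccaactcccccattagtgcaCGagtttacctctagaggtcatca
Hoxb4 promoter, chr11:96318017-96318316, plus strand: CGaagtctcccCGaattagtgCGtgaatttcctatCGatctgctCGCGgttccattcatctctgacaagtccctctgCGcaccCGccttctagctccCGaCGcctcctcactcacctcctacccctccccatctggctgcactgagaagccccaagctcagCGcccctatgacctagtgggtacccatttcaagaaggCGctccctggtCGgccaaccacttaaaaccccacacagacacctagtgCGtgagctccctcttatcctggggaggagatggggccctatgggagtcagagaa

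The peaks covered these windows to very different extents. In yolk sac replicates 1 and 2 they covered 300 and 294 of the 300 bases at Hoxc4, 264 and 264 at Hoxd8, 300 and 300 at Hoxd9, and 300 and 272 at Hoxa13. At Hoxa5 they covered 15 bases in both replicates, and at Hoxb4 116 and 66. No base of the 6 windows lay under a liver peak, Hoxb4 included, since its liver peaks began further downstream. Among these 6 genes the order by CpG number was not the order by percentile. Hoxd8, with percentiles of 81.4 and 73.0, held 6 CpGs, Hoxc4 held 9, Hoxb4 14, Hoxd9 20, Hoxa5 29 and Hoxa13 45.

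Most Hox windows came from Hoxa and Hoxd genes, and Hoxc4 was the only Hoxc gene among them. These Hox promoters were richer in CpGs than promoters at large. Their windows held 4 to 45 CpGs, and the median ratio of CpGs observed to those the base composition predicts was 0.626, against 0.384 over all 32851 RefSeq promoters. The median GC content was 57.7% against 52.7%. A search of both strands found the letters CCAAT in 62.5% of Hox windows and 37.4% of all windows, and GGGCGG in 41.7% and 35.7%. The letters TGATNNAT, a form of the site that Hox proteins bind with the Pbx partner, were in 16.7% (4 of 24) and 8.85%, and TATAAA in 16.7% and 13.6%. In the printed windows, CCAAT letters lay 62 bp before the Hoxd8 start and 36 bp before that of Hoxa13, and GGGCGG letters lay 45 bp before the Hoxc4 start. These matches describe the letters of the windows and are not binding sites shown by the data.

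Yolk sac peaks at Hox genes lay further into the gene than those at other genes. The start lay inside the peak for 14 of 22 called Hox genes (63.6%) in replicate 1 and 15 of 21 (71.4%) in replicate 2. Over all called protein-coding genes these shares were 96.1% and 96.7%, and over the 1153 yolk-sac-only protein-coding genes 85.7% and 84.5%. The midpoint of the peak was downstream of the start for 19 of 22 (86.4%) and 17 of 21 (81.0%) Hox genes, against 60.4% and 59.2% of all called genes and 62.3% and 62.1% of yolk-sac-only genes. The median midpoint was 414 and 287 bp downstream for Hox genes, 44 and 32 bp for all called genes and 71 and 57 bp for yolk-sac-only genes. In liver, where 3 Hox genes were called, the midpoint was downstream at Hoxb4 alone, and the median midpoint offsets were -248 and -398 bp, upstream of the start. The farthest downstream midpoints were those of Hoxb8, at 2351 bp in replicate 1, and Hoxb2, at 1670 bp in replicate 2. No test was made of these shares and positions.

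The yolk-sac-only Hox peaks were also wide. Their median width was 1752 and 1627 bp over the 14 genes, against 1102 and 902 bp over all yolk-sac-only protein-coding genes. Their median percentile, 60.5 and 58.3, was near that of the same background, 60.3 and 52.4. These are descriptions of 14 genes, several of which share a cluster, and no test was made of them. Of the 14 genes Hoxc6 held the widest promoter peak in each yolk sac library, and Hoxb9 the narrowest.

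**Figure D2:**
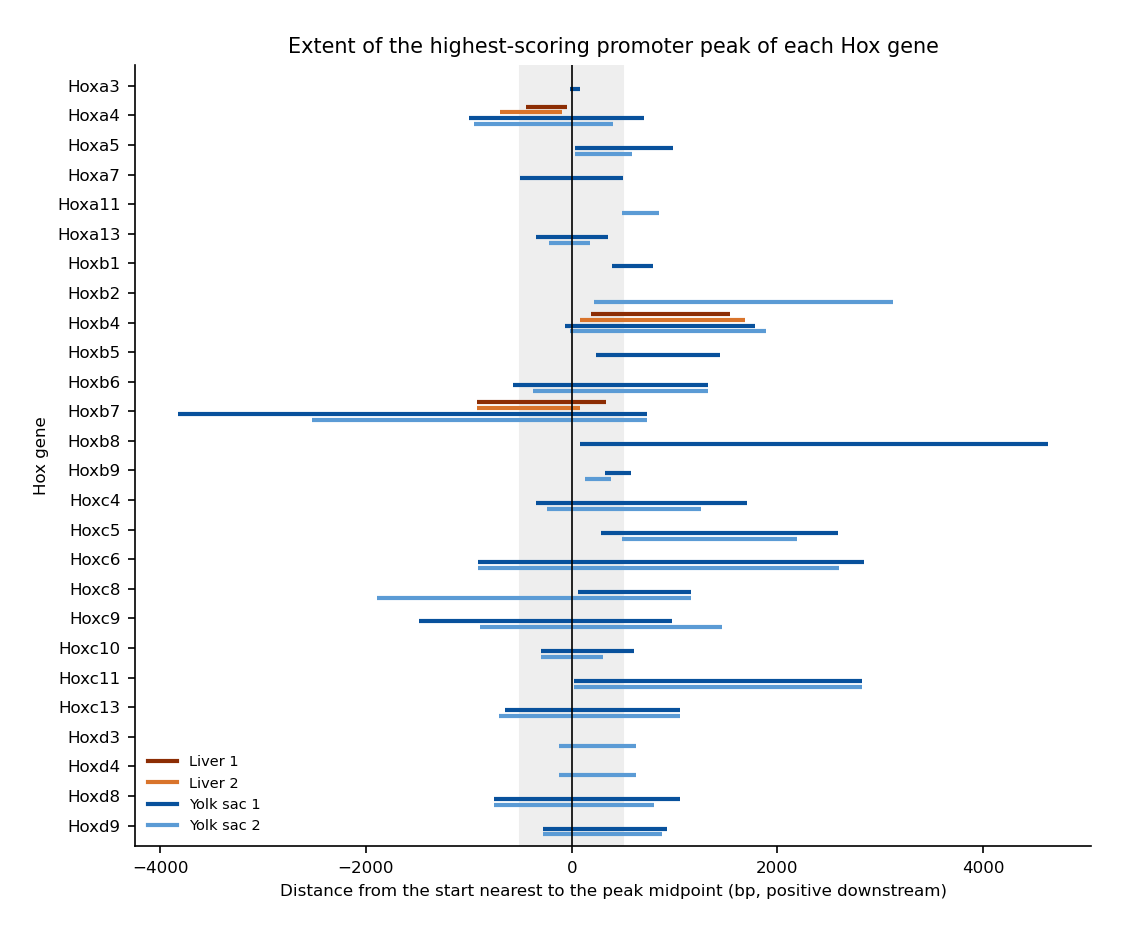
Extent of the highest-scoring promoter peak of each called Hox gene in each library (bars), in bp from the annotated start nearest to the peak midpoint, positive downstream. Grey shading marks the 500 bp on either side of the start. Most yolk sac bars reach further to the right of the start than to the left, with Hoxa4 and Hoxb7 among the exceptions, and the liver bars are confined to Hoxa4, Hoxb4 and Hoxb7.

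Peaks away from the promoters added to the difference. Inside the 4 clusters, taken from 500 bp before the outermost gene to 500 bp after the last, there were 5 peaks in each liver library and 37 and 35 in the yolk sac libraries. Of these, 3 and 3 in liver and 24 and 22 in yolk sac were at promoters of the Hox genes, and 2, 2, 13 and 13 were elsewhere. The total of peaks elsewhere thus differed by 11 between tissues and not at all within a tissue (exact permutation p = 0.333, the lowest possible). The yolk sac replicates did not hold all the same peaks, although their totals were equal. The number of peaks elsewhere differed by 4 in lists of equal length. Per cluster, Hoxc held 5 and 6 such peaks in yolk sac, Hoxb 6 and 5 and Hoxa 2 and 2. In liver the Hoxb cluster alone held any, 2 in each library, and the Hoxd cluster had none in any library.

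**Figure D3:**
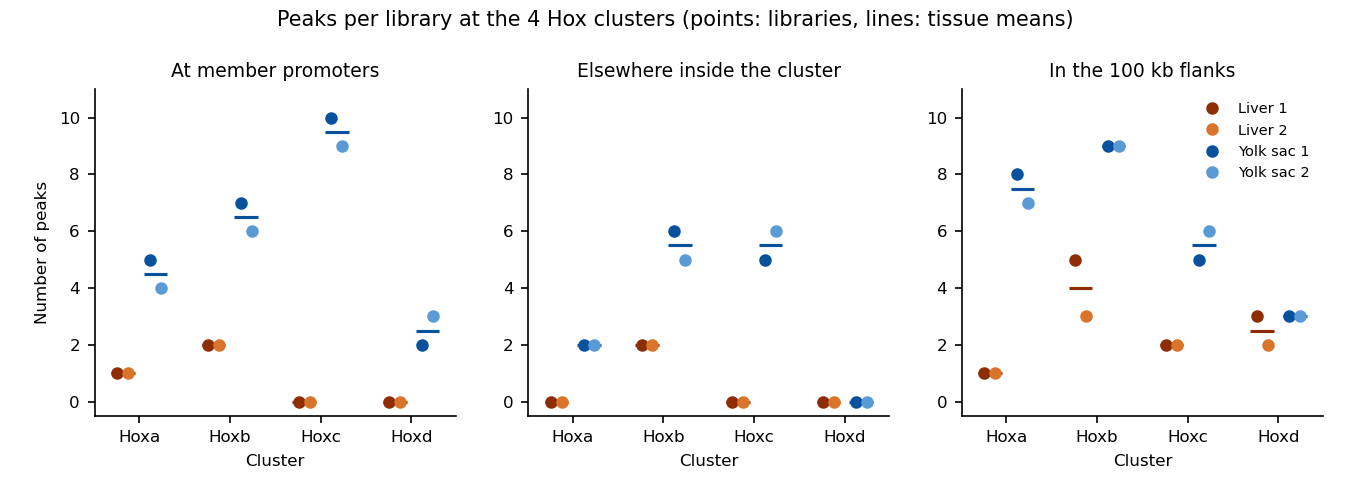
Number of peaks per library (points) and mean per tissue (lines) at promoters of the Hox genes, elsewhere inside each cluster and in the 100 kb on either side, by cluster. Yolk sac points lie above the liver points in all panels except for Hoxd peaks elsewhere in the cluster, at 0 in every library, and Hoxd flanks, where 1 liver library equals the yolk sac libraries.

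When overlapping peaks of the 4 lists were merged, the clusters held 40 regions, of which 26 were yolk-sac-only, 0 were liver-only and 5 were present in every list. In Hoxc 14 of 15 regions were yolk-sac-only. The shares of these patterns over all merged regions of the lists are not given here. With yolk sac lists 1.90-fold longer, the region counts are therefore a description without a background. A region centred on an untranslated exon of Hoxc6, inside an intron of Hoxc5, chr15:103010601-103012902, was at yolk sac percentiles 63.4 and 79.0. In the Hoxa cluster the intron of Hoxa3 held a region at chr6:52170501-52171152, at percentiles 58.4 and 51.0. In Hoxb, 2 regions named after their values were seen account for the liver peaks away from promoters. One, between Hoxb5 and Hoxb4 at chr11:96314551-96315452, had liver percentiles of 29.2 and 23.0 and yolk sac percentiles of 48.2 and 28.4. The other, centred on a coding exon of the hindbrain gene Hoxb2 at chr11:96351851-96355002, was at 19.8 and 14.1 in liver and 61.4 and 62.8 in yolk sac, although its peaks came within 500 bp of a Hoxb2 start in 1 library only.

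MicroRNA genes lie between the Hox genes, and their mature products are known to lower Hox and other messenger RNAs. The mature sequences are shown with the seed, bases 2 to 8, in capitals, because the seed decides which messages are bound.
miR-10a-5p: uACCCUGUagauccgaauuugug
miR-10b-5p: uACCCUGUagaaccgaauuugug
miR-196a-5p: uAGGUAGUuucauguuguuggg
miR-196b-5p: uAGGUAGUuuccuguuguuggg
miR-615-3p: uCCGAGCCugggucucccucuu

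The miR-10 sequences of the Hoxb and Hoxd clusters share 1 seed, and the miR-196 sequences of the Hoxa, Hoxb and Hoxc clusters share another (RefSeq, GRCm38.p6). Mir615 lay inside the Hoxc5 peak in both yolk sac libraries. Mir10a lay between the shared Hoxb region named above and the Hoxb4 peak, 1243, 1143, 993 and 1043 bp from the nearest peak over the liver and then the yolk sac replicates. Mir196a-2, in Hoxc, was 2165 bp from the Hoxc9 peak in both yolk sac libraries and 110465 and 110215 bp from a liver peak. Mir10b, in Hoxd, was 19872 and 13522 bp from a yolk sac peak and 99205 bp from a liver peak. None of the Mir10 and Mir196 genes had a peak at its own annotated start, which marks the precursor and not the start of the primary transcript.

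In the 100 kb on either side of the clusters the ratio between tissues was smaller. There were 11 and 8 peaks in the liver libraries and 25 in each yolk sac library, a ratio of means of 2.63, against 7.20 inside the clusters and 1.90 over the whole lists. The difference of 15.5 flank peaks (exact permutation p = 0.333, the lowest possible) was 5 in lists of equal length, 6.5 within 50 kb and 40.5 within 200 kb. By cluster, the liver replicates had 1 and 1 beside Hoxa, 5 and 3 beside Hoxb, 2 and 2 beside Hoxc and 3 and 2 beside Hoxd. The yolk sac replicates had 8 and 7, 9 and 9, 5 and 6, and 3 and 3. Hoxd, which had no liver peak inside it, thus had nearly equal numbers of flank peaks in both tissues. Of these, the promoters of its neighbours Lnpk (percentiles 63.6, 66.1, 66.1 and 68.8) and Mtx2 (62.8, 75.8, 63.3 and 61.1) were called in all 4 libraries.

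Beside Hoxa, an intergenic region 97.1 kb outside the cluster, chr6:52064001-52064802, was at yolk sac percentiles 87.2 and 95.6. Another, chr6:52290451-52291952, lay 29.1 kb beyond the Hoxa13 end at percentiles 89.9 and 69.0. Both ranked above every promoter peak of the listed Hoxa genes in either yolk sac list. Beside Hoxb, the yolk-sac-only regions chr11:96372301-96372952 (51.4 and 70.6), chr11:96407351-96408052 (74.4 and 38.3) and chr11:96396701-96397902 (50.6 and 26.8) were all intergenic and lay beyond Hoxb1. A region named after its values were seen, in an intron of Ttll6 at chr11:96140451-96141752, 52.1 kb beyond Hoxb13, was at percentiles 97.6 and 99.3 in yolk sac and 27.8 in liver replicate 1, with no peak in liver replicate 2.

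Beside Hoxc, yolk-sac-only intergenic regions lay at chr15:103069251-103069852 (75.4 and 76.7) and chr15:103109651-103110652 (61.0 and 63.4), both beyond Hoxc4. The same flank held 2 liver-only regions, the only ones inside the 4 clusters or within 100 kb of them. They were chr15:103083601-103084252, at liver percentiles 3.38 and 60.1, and chr15:103085751-103086552, at 40.1 and 47.2. The Hoxc genes themselves had no liver peak. Beside Hoxd, 1 yolk-sac-only region was found, chr2:74595951-74596652 (23.1 and 16.9).

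**Figure D4:**
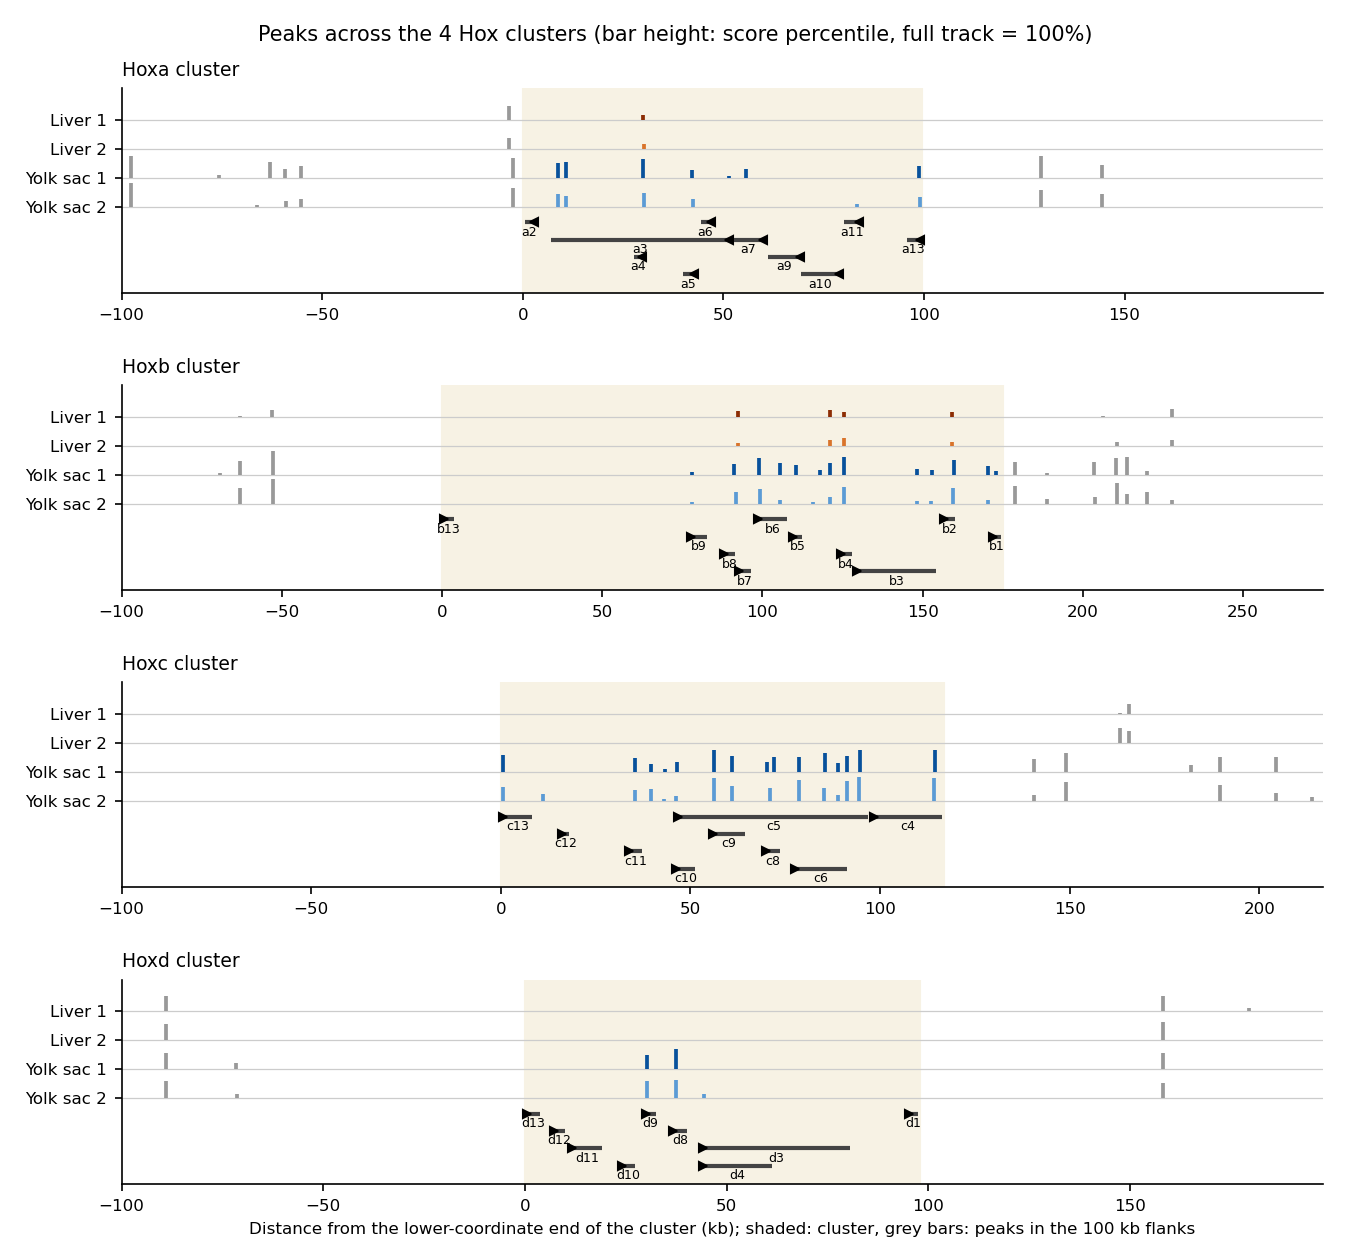
Peaks of each library (bars, height as score percentile, full track 100%) along the 4 clusters and their 100 kb flanks, in kb from the lower-coordinate end of each cluster. Shading marks the cluster, grey bars are flank peaks, and the arrows below show the Hox genes in their direction of transcription. Liver tracks are empty across Hoxc and Hoxd, and yolk sac peaks are densest in Hoxc.

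Long stretches of the clusters held no peak in any library. In Hoxd a stretch of 29.6 kb (chr2:74667810-74697450) spanned Hoxd10 to Hoxd13, and one of 53.1 kb (chr2:74712553-74765642) held the Hoxd1 start. In Hoxb, 77.8 kb from the Hoxb13 side to the start of Hoxb9 (chr11:96193816-96271650) had no peak, nor had 21.6 kb downstream of Hoxb4 (chr11:96320153-96341750). In Hoxa, 27 kb with Hoxa9 and Hoxa10 (chr6:52217953-52244950) had none, and in Hoxc 22.3 kb with Hoxc12 (chr15:102932103-102954450). In liver the peakless stretches reached 68.9 kb in Hoxa, from beyond Hoxa4 to the Hoxa13 end, and 91.9 kb in Hoxb, from the Hoxb13 side to beyond Hoxb8.

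Of 17 noncoding RNA genes listed with the clusters and found in the annotation, 1 was called in each liver library and 5 in each yolk sac library. The list includes Mir3063, which lies outside the clusters and their 100 kb flanks and was not called. Hotairm1, at the head-side end of Hoxa and just outside the interval of the listed genes, was called in all 4, at percentiles 55.6 and 44.5 in liver and 79.4 and 74.0 in yolk sac. Hoxb3os (61.4 and 62.8), Halr1 (34.6 and 23.0) and Mir615 were yolk-sac-only, and 11 genes, Hotair, Hottip and Haglr among them, were not called. The Hoxb3os peaks belong to the region at Hoxb2 named above, which was present in all 4 lists. Its liver peaks, 252 and 402 bp wide, did not reach the Hoxb3os window. Annotated starts of antisense genes lie beside Hox starts, so some of these calls use the peaks of the Hox genes.

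Genes that work with or act on the Hox genes were called far more evenly. Of the 11 TALE homeodomain cofactors, which bind DNA together with Hox proteins, 9 and 10 were called in the liver libraries and 11 in each yolk sac library. Meis1, a partner of Hox proteins in blood progenitors, was at percentiles 57.2, 82.5, 82.4 and 93.8 in the liver and then the yolk sac replicates. Meis3 was yolk-sac-only, at 84.4 and 90.2. All 22 Polycomb genes were called in all 4 libraries. The trithorax and H3K27 demethylase list had 9 of 10 called in all 4 libraries, and Kdm6b was not called in any.

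Of 12 other Hox-related homeobox genes, 0 and 3 were called in the liver libraries and 3 and 2 in the yolk sac libraries. Cdx2, which activates Hox genes in the early embryo, was yolk-sac-only at percentiles 66.5 and 70.3. Evx1 and Evx2, which lie beside the tail-side ends of Hoxa and Hoxd, had no promoter peak in any library. Of 20 annotated neighbours of the clusters, 16 were called in all 4 libraries, against 3 of the 38 Hox genes and 53.8% of protein-coding genes. Some of these neighbours lie well outside the 100 kb flanks.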

How the data were processed

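Per the labels' protocols, chromatin from 6 pooled embryos per library was used for PRO-seq of liver and yolk sac (2 libraries each). The authors deposited 1 peak list per library, with chromosome, start, end and a score, and the file names carry dREG. The submitters' processing notes name mm10, Bowtie2 and bedtools without a role or version, and the dREG version and thresholds are not given in the sources used here. The deposited score is at least 0.80 in every list. The smallest gap between neighbouring peaks is 548 bp.

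Peaks were matched to GENCODE M21 starts on GRCm38 (mm10) with Python 3.11.15, numpy 2.4.6 and scipy 1.17.1, by an overlap of at least 1 bp with 500 bp on either side, and positions are 1-based. Peaks inside clusters or flanks were assigned by midpoint. On simulated lists, the planted pattern, which for some genes was no call, was returned for all 200 genes. These genes had a single start, with peaks centred inside the window or lying well outside it. Shared peaks, several starts and peaks at the edge of the window were therefore not tested. Tissues were compared by exact two-sided permutation over the 6 assignments. Same-numbered replicates did not deviate together (correlation of their percentile deviations 0.00267 over 15689 regions), so no pairing was used.

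The Hox genes, gene lists and tests were chosen with earlier results of these data known. Each yolk-sac-only or liver-only gene is described in full, as is, in each cluster, the gene with the highest lower-of-4 percentile among those called in all 4 libraries. Up to 3 regions per cluster and tissue are named, by the lower percentile. Alternatives were other windows, start sets, peak filters and flanks, and leaving out each library.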

Additional observations from a re-analysis of the deposited data

How the results depend on the processing

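Of 175 values recomputed under alternatives, 128 stayed within the spread between replicates, or for counts without a test within 1.5 times. Another 47 moved further, and 0 reversed. Some of the 128 could not have moved. Treating the replicate number as a block changes only the p-value, and leaving out a library is limited as described next. A count without a test could not be labelled reversed. With each library left out in turn, the difference ranged from 18 to 19 over all Hox genes and from 3 to 4 in Hoxa. It ranged from 3 to 5 in Hoxb, from 8 to 8 in Hoxc and from 2 to 4 in Hoxd. With 2 libraries per tissue, leaving one out cannot move a difference beyond the replicate spread, so these ranges do not test its stability. Yolk-sac-only genes numbered 14 to 19, within 1.5 times the main count. Filters on peaks and windows changed the numbers of calls by their construction, since they keep fewer or more peaks. In lists of equal length, the difference in Hox genes called was 9.5, in Hoxa 0, in Hoxb 1, in Hoxc 6.5, in paralog groups 1 to 4 1.5, in groups 5 to 8 4.5 and in groups 9 to 13 3.5. Yolk-sac-only genes were then 9, peaks elsewhere in the clusters differed by 4, flank peaks by 5 and median percentiles by 17.3. With the higher-scoring 50% of peaks, the Hox difference was 12, Hoxa 1, Hoxb 2.5, Hoxc 6.5, groups 5 to 8 5, groups 9 to 13 3.5, peaks elsewhere 5 and flank peaks 11. No Hox gene was then called in all 4 libraries, so the percentile and width comparisons have no value there. With the peak midpoint required inside the window, the Hox difference was 12, Hoxa 2.5, Hoxb 1, Hoxc 5.5, groups 1 to 4 1.5, groups 5 to 8 4.5, groups 9 to 13 6, peaks elsewhere 19, and the median width difference, resting on Hoxa4 alone, 1025 bp. Hoxb7 then became the 1 liver-only Hox gene. A window of 250 bp gave 16.5 for Hox, 7.5 for Hoxc, 6.5 for groups 9 to 13 and 13.5 for peaks elsewhere. A window of 1000 bp gave 20, 5.5 for Hoxb, 5 for groups 1 to 4 and 8.5 for peaks elsewhere. Starts of protein-coding transcripts, and those of APPRIS principal transcripts, each gave 17 for Hox, 2.5 for groups 1 to 4 and 13.5 for peaks elsewhere. Giving each peak to the nearest gene gave 17.5. Peaks outside every Hox gene body differed by 4.5. Flanks of 50 kb gave 6.5 and flanks of 200 kb gave 40.5.

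With the replicate number as a block, the Hox difference stayed at 18.5, with an exact permutation p of 0.5, the smallest this pairing allows. The lists hold no reads, so depth limits the calls to an unknown extent, and a gene without a peak may be transcribed below detection. With 2 libraries against 2, differences were read only against the spread between libraries. Yolk sac lists are longer, and the share of any count that list length sets was tested only through the equal-length and higher-scoring lists. Annotated starts of neighbouring genes share peaks.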
